A study of Gallus gallus with 8 samples.

Results

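The trachea of unexposed chickens was described from 1 mRNA library, made from control birds (Gallus gallus) at 42 days of age. It was chosen by its label, as the control column numbered 3 of the deposited gene count table, and it is 1 of 2 mRNA libraries and 1 of 8 libraries in the series. Per the labels' protocols, hydrogen sulfide gas was kept out of the control chamber. The labels name no breed, sex or genotype and do not say whether the RNA came from 1 bird or a pool. With 1 library there is no replicate, so no p-value is given, and every interval covers counting error only and says nothing of the spread between birds.

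The trachea is held open by rings of hyaline cartilage, whose collagen fibrils are built mainly of type II collagen with types IX and XI and are filled with the proteoglycan aggrecan. Its lumen is lined by a ciliated, mucus-secreting epithelium over a basement membrane and a fibrous layer with immune cells. In birds, striated muscles run along the tube and attach to it, and they move the trachea and the vocal organ at its end.

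Values are CPM, a gene's counts scaled to the library's total of 18875586 counts. A gene at 1 CPM had at least 19 counts, and for a gene at 0 counts the floor of 3 counts, a one-sided limit, is 0.159 CPM. Transcript lengths were not used here, and a long transcript takes more reads than a short one present in as many copies. Ranks and shares below therefore order reads, not molecules. In bulk tissue, fewer cells of a type and less RNA per cell cannot be told apart.

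Expression was broad, and no gene dominated the counts as deposited. Genes of the mitochondrial genome, listed at 0 as described below, take no part in the shares that follow. Of 26296 genes, 14798 reached 1 CPM (56.3%), 10034 reached 10 CPM (38.2%) and 2571 reached 100 CPM (9.78%), while 6456 had 0 counts. Among the genes classed as mRNA, that is protein-coding, 70.4% reached 1 CPM and 51.2% reached 10 CPM, with a median of 10.9 CPM. Counts of listed genes below are to be read beside these shares. The median of all genes was 2.41 CPM, and the median of those at 1 CPM or more was 23.3 CPM. The 10 genes with the most counts took 4.80% of the library, the first 100 took 17.8%, and 1163 genes were needed for 50% of the counts.

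**Figure D1:**
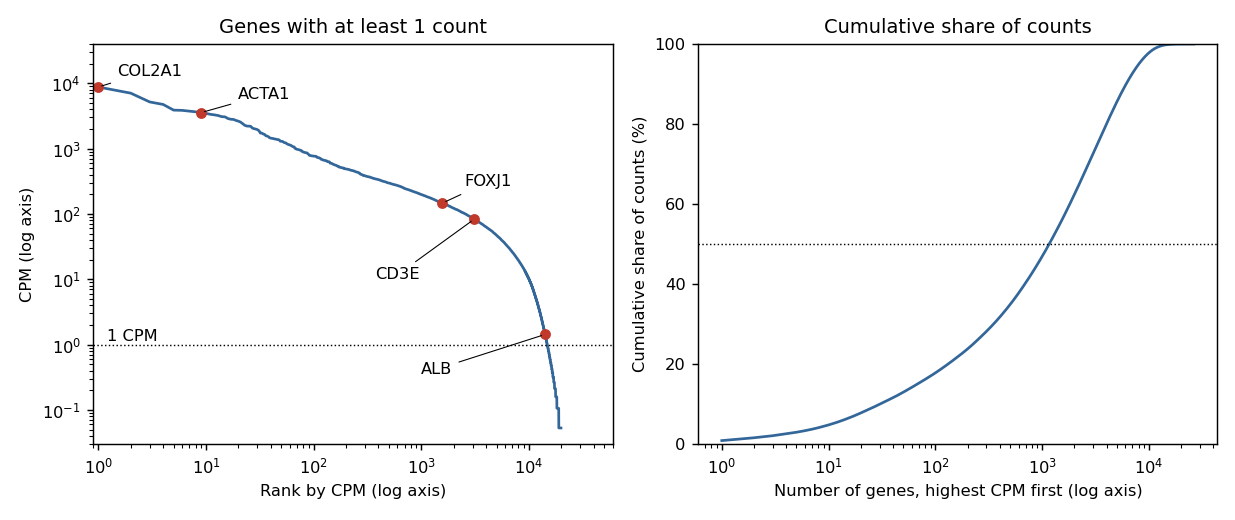
CPM of each gene with at least 1 count against its rank (left, both axes on a log scale) and the share of counts taken by the genes added up from the highest CPM (right). COL2A1 leads at 8779 CPM, the albumin gene ALB lies near the dotted line of 1 CPM at 1.43 CPM, and the right curve crosses 50% at 1163 genes.

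Matrix genes headed the ranking, and the 3 genes used to check the tissue label were all among the first 9. COL2A1, the type II collagen chain of cartilage, ranked 1 at 8779 CPM (exact 95% Poisson interval 8737 to 8822). COL3A1, the type III collagen chain of loose connective tissue, ranked 2 at 7065 CPM (7027 to 7103). ACTA1, skeletal muscle alpha-actin, ranked 9 at 3559 CPM (3532 to 3586). The library thus held strong signal of cartilage, connective tissue and striated muscle together, as the trachea label allows. These 3 genes were chosen with earlier results of these data known, so their ranks are not an independent check of the label.

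The other leading genes were of several kinds. OVSTL, an ovostatin-like gene of the alpha-2-macroglobulin family of protease inhibitors, ranked 3 at 5186 CPM. COL1A2, COL9A1 and MYH1B, a fast skeletal myosin heavy chain, followed at 4747, 3889 and 3852 CPM. IGLL1, an immunoglobulin light chain gene, was at 3750 CPM, and BPIL3, of the family of bactericidal and lipid-binding BPI proteins, at 3662 CPM. Secreted defence proteins thus stood beside matrix and muscle genes in the first 10, which COL1A1 closed at 3466 CPM.

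**Figure D2:**
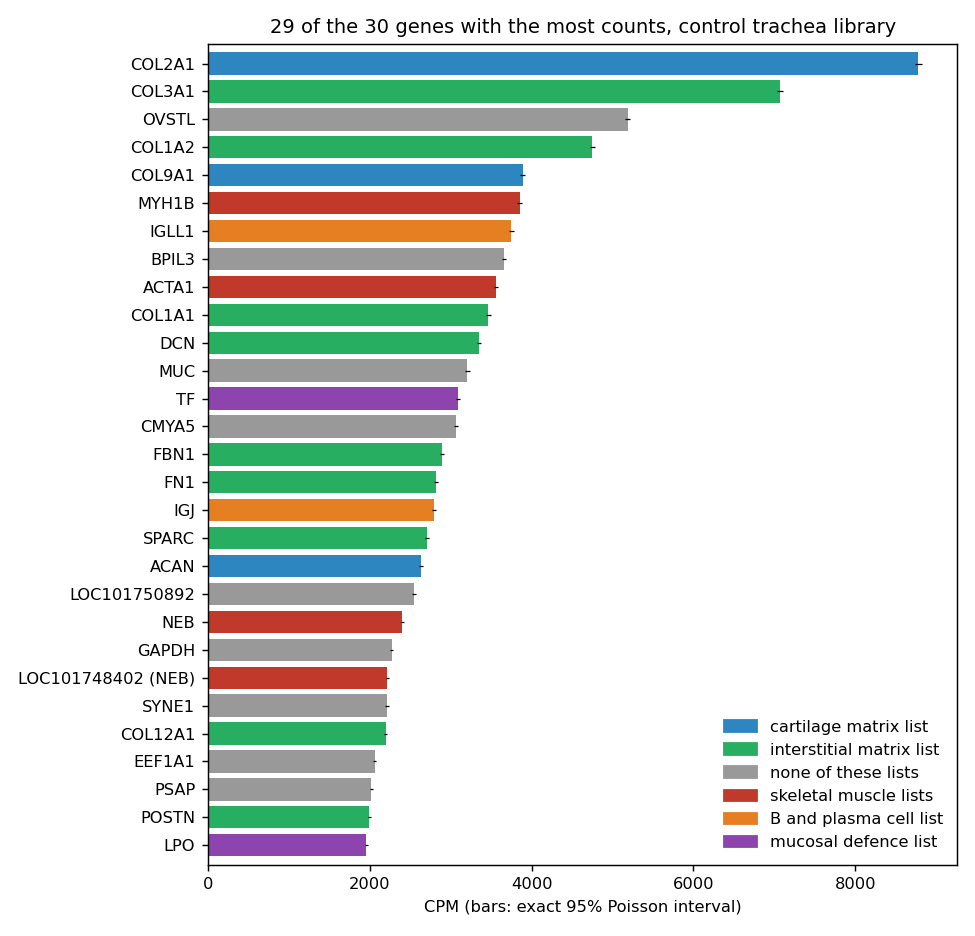
CPM of 29 of the 30 genes with the most counts, with colours for the marker list that holds each gene and thin black lines for the exact 95% Poisson interval. COL2A1 and COL3A1 reach 8779 and 7065 CPM, and the last of the 30, LPO, is at 1955 CPM.

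Between rank 11 and rank 20 were DCN, MUC, TF, CMYA5, FBN1, FN1, IGJ, SPARC and ACAN, between 3350 and 2631 CPM. DCN encodes decorin, FBN1 fibrillin-1, FN1 fibronectin and SPARC osteonectin, all of the extracellular matrix. CMYA5, at 3067 CPM, encodes a large protein of striated muscle, and MUC, at 3207 CPM, is a mucin by its symbol. From rank 21 to 30, the genes with a symbol were NEB, GAPDH, SYNE1, COL12A1, EEF1A1, PSAP, POSTN and LPO, at 2403 to 1955 CPM.

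The giant muscle protein nebulin was counted on 2 rows. NEB itself had 2403 CPM at rank 22, and LOC101748402, which the RefSeq gene table of the GRCg7b assembly names NEB, had 2215 CPM at rank 24. Summed, they come to 4619 CPM, which would rank 5. PARP14, which is in the interferon-stimulated list, was likewise split, with 311 CPM on LOC101747378 and 122 CPM on the row of its own symbol, so levels of single rows are lower limits for such genes. The only identifier without a symbol among the first 30 was LOC101750892, at 2544 CPM.

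Cartilage matrix genes took 2.34% of all counts (exact Clopper-Pearson 95% interval 2.34% to 2.35%). Of 25 measured genes of the list, 23 reached 1 CPM, 23 reached 10 CPM and 16 reached 100 CPM. Over all genes, 56.3%, 38.2% and 9.78% reached these levels. Of protein-coding genes, 51.2% reached 10 CPM. The list's median of 233 CPM stands beside 2.41 CPM over all genes and 10.9 CPM over protein-coding ones. After COL2A1 and COL9A1 came ACAN, the aggrecan core protein, at 2631 CPM, COL9A3 at 1298 CPM, the cartilage matrilin MATN1 at 1242.5 CPM and COMP, which binds collagen fibrils, at 973 CPM. COL2A1 alone held 37.5% of the counts of the list. MATN4 and SCRG1 were the members under 1 CPM, at 0.424 and 0.106 CPM.

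Regulators of chondrocytes were measured too. FGFR3, a receptor that restrains growth of cartilage, was at 343 CPM, TRPS1 at 209 CPM and SOX6 at 164 CPM. SOX9, the master regulator of cartilage, was at 68.6 CPM and its partner SOX5 at 7.58 CPM. WWP2 and PAX9 completed the first 6 at 50.8 and 42.9 CPM. RUNX2 and IHH, regulators of growth-plate cartilage, had 0.159 and 0.106 CPM, at or under the floor.

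Genes of mineralised tissue covered a wide range. MGP, an inhibitor of mineral deposition, was at 1400.3 CPM and the plasminogen-binding CLEC3B at 683 CPM. ENPP1 and ANKH, which supply the mineral inhibitor pyrophosphate, were at 99.3 and 27.9 CPM, while PHOSPHO1, an enzyme of mineralising matrix, was at 23.5 CPM and PHEX at 9.59 CPM. COL10A1, the collagen of hypertrophic cartilage, was at 4.40 CPM and ALPL at 4.08 CPM. The bone matrix genes SPP1 and DMP1 had 14 and 2 counts. BGLAP, IBSP, MEPE and SP7, also of osteoblasts and bone, had 0 counts.

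Interstitial matrix and fibroblast genes took the largest share of any marker list fixed here, at 4.30% of counts (4.30% to 4.31%). All 33 measured members of that list reached 10 CPM, 27 reached 100 CPM, and the median was 653 CPM. Over all genes, 38.2% reached 10 CPM and 9.78% reached 100 CPM, and 51.2% of protein-coding genes reached 10 CPM. COL3A1, COL1A2, COL1A1 and DCN led, followed by FBN1 at 2887 CPM and FN1 at 2817 CPM. The list held 9 of the first 30 genes and 15 of the first 100. The tenascin TNC, found in tendon and perichondrium, was at 1354 CPM, whereas the fibroblast surface marker THY1 was lowest in the list at 32.8 CPM.

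Basement membrane genes took 0.427% of counts, and all 20 were over 1 CPM, against 70.4% of protein-coding genes. COL4A1 was at 758 CPM, HSPG2, or perlecan, at 732 CPM, COL15A1 at 493 CPM, LAMA4 at 322 CPM, COL4A2 at 288 CPM and NID1 at 285 CPM. The matrix-degrading enzymes were measured as a family chosen after the values were seen. Of 15 metalloproteinases, 13 reached 1 CPM, against 70.4% of protein-coding genes. The gelatinase MMP2 led at 1274 CPM, and the 3 measured inhibitors TIMP2, TIMP4 and TIMP3 were at 181, 159 and 86.7 CPM.

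Skeletal muscle genes were prominent too. The fast muscle list took 1.398% of counts, with a median of 397 CPM. All 18 measured members reached 10 CPM, against 38.2% of all genes and 51.2% of protein-coding ones. After MYH1B and ACTA1 came the tropomyosin TPM1 at 1177 CPM, which other contractile cells also make, the light chain MYL1 at 1012 CPM, and the troponins TNNT3 and TNNI2 at 784 and 683 CPM. Other fast myosin heavy chains were at 520 CPM (MYH1D), 506 CPM (MYH1A), 278 CPM (MYH1F), 170 CPM (MYH1C) and 94.5 CPM (MYH1E). These genes are close copies of each other, and how reads were split among them is uncertain.

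Slow muscle genes took less, 0.312% of counts, with a median of 35.8 CPM. MYBPC1, the slow form of a thick-filament protein, was at 1411 CPM, the calcium pump ATP2A2 at 519 CPM and the calcium store protein CASQ2 at 387 CPM. TPM3, CKMT2 and the cardiac actin ACTC1 followed at 258, 154 and 64.8 CPM, and ATP2A2 and TPM3 are also made by many other cells. The slow and cardiac troponins TNNI1 and TNNC1 were at 30.6 and 19.7 CPM and the oxygen store myoglobin (MB) at 8.53 CPM. Of the myosin heavy chains in the list, MYH7B was at 53.6 CPM and MYH7 at 0.901 CPM. The light chains MYL3, MYL10, MYL2 and MYL4 were at 47.9, 39.2, 34.8 and 0.371 CPM.

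Among proteins of the sarcomere's scaffold, NEB was at 2403 CPM, ACTN2 at 1295 CPM, MYOM2 at 719 CPM, LDB3 at 643 CPM and DES (desmin) at 435 CPM. XIRP2, counted on LOC772075, had 0 counts. Of the muscle regulators, MEF2C led at 335 CPM and is not confined to muscle. MYOD1, the fate factor of muscle, was at 54.4 CPM and MEOX2 at 34.5 CPM. MYF6, MYF5 and the satellite cell factor PAX7 were at 2.23, 2.07 and 1.96 CPM, and MYOG, which rises when myoblasts fuse, was at 0.530 CPM.

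Smooth muscle gave a much smaller share, 0.127% of counts. All 17 members reached 1 CPM, against 70.4% of protein-coding genes. Their median of 25.2 CPM was near the 23.3 CPM of all genes at 1 CPM or more. SYNM, MYLK, ACTA2, CALD1, RGS5 and SYNPO2 led at 305, 242, 142, 122, 115 and 107 CPM, and several of these are also made by striated muscle or pericytes. The most restricted contractile genes were low, with the smooth muscle myosin MYH11 at 11.5 CPM, ACTG2 at 5.99 CPM, CNN1 at 4.98 CPM and SMTN at 1.01 CPM.

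**Figure D3:**
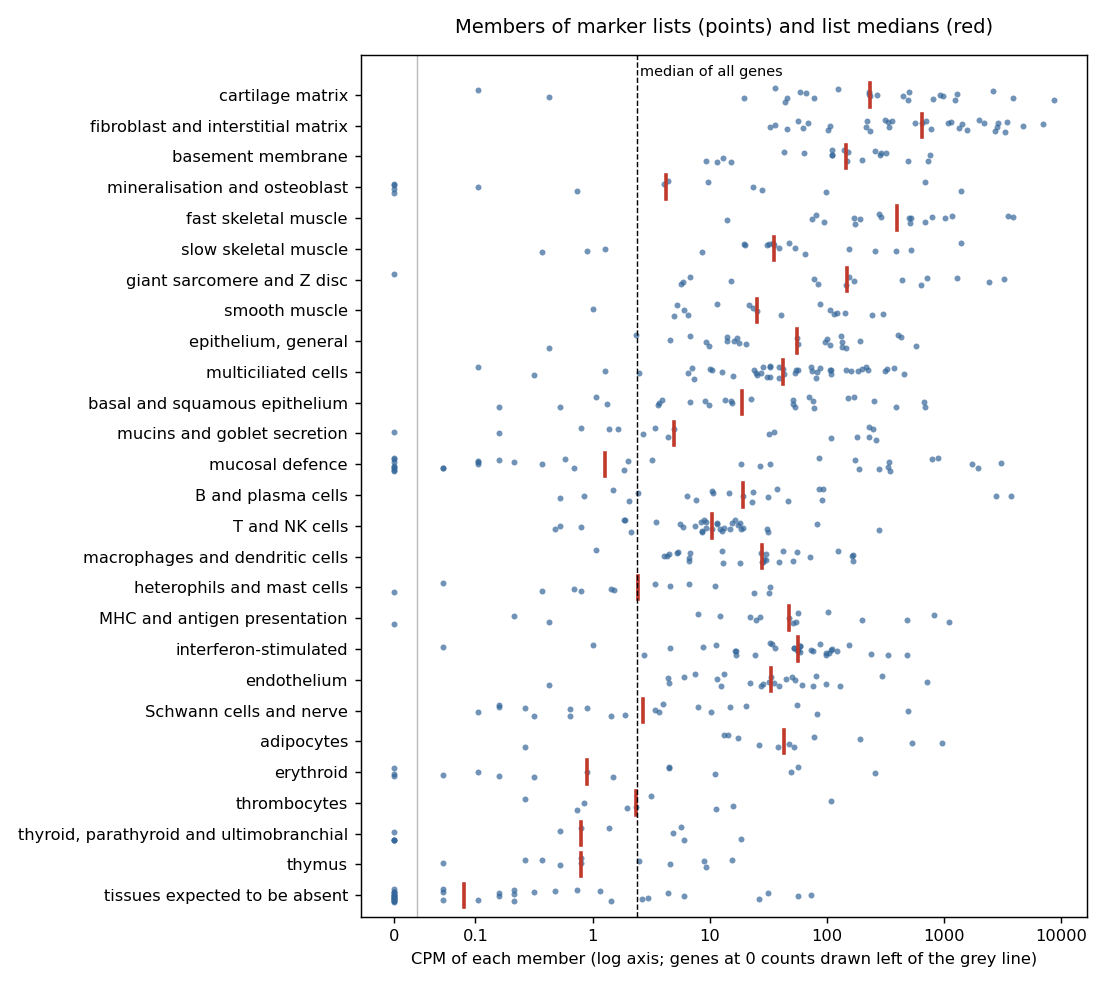
CPM of every measured member of 27 marker lists (blue points, log axis, genes at 0 counts left of the grey line), with the list median in red and the median of all genes, 2.41 CPM, as a dashed line. Interstitial matrix, fast muscle and cartilage have medians of 653, 397 and 233 CPM, and tissues expected to be absent have 0.0795 CPM. The median of protein-coding genes, 10.9 CPM, is not drawn and is higher than the dashed line.

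Epithelium was plainly present. General epithelial genes took 0.269% of counts, with a median of 55.6 CPM, and 24 of 25 reached 1 CPM, against 70.4% of protein-coding genes. The keratin KRT7 was at 573 CPM, the adhesion molecule EPCAM at 427 CPM, the tight junction protein CLDN1 at 403 CPM, KRT19 at 193 CPM, the polarity protein LLGL2 at 145 CPM and ELF3, an epithelial transcription factor, at 134 CPM. CDH1, or E-cadherin, was at 132 CPM, and CLDN4 was the member under 1 CPM.

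Most multiciliated cell genes were read. Of 45 measured genes, 43 reached 1 CPM, against 56.3% of all genes and 70.4% of protein-coding ones. Together the 45 took 0.399% of counts (0.396% to 0.402%) with a median of 42.1 CPM. The dynein heavy chains DNAH9, DNAH5, DNAH12 and DNAH3, which power ciliary beating, were at 458, 377, 315 and 218 CPM. SPEF2 and HYDIN, of the ciliary axoneme's central part, were at 324 and 226 CPM. FOXJ1, the master regulator of motile cilia, was at 147 CPM and RFX3 at 200 CPM. CCNO, which acts while precursors multiply their centrioles, was at 1.27 CPM, and RSPH4A and PIFO were at 0.318 and 0.106 CPM.

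Basal and squamous genes took 0.282% of counts. The first 6 were ANXA2, AQP3, DSP, PPL, ITGA6 and ITGB4, at 692, 669, 388, 255, 170 and 153 CPM. TP63, the defining factor of basal cells, was at 70.9 CPM, COL17A1 at 77.2 CPM and KRT5 at 51.7 CPM. Keratins of multilayered epithelium such as KRT14 and KRT6A had 9.91 and 1.32 CPM, and KRT75 had 0.159 CPM. The oesophagus, which lies beside the trachea, has a squamous lining, and the amount of its RNA here was not tested.

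Proteins that act in mucosal defence were led by a few genes. The mucosal defence list took 1.03% of counts, with a median of 1.27 CPM. BPIL3, at 3662 CPM and 0.366% of counts, is outside the list as fixed and so outside this share. Of its 36 members, 18 reached 1 CPM, against 56.3% of all genes and 70.4% of protein-coding ones. TF, the iron-binding ovotransferrin, was at 3087 CPM, and LPO, lactoperoxidase of airway secretions, at 1955 CPM. PIGR, which carries antibody across epithelium, was at 1730.2 CPM, SPINK5 at 888 CPM, the goose-type lysozyme LYG2 at 787 CPM and RARRES1 at 345 CPM. The lung lectin gene LL was at 342 CPM.

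The antimicrobial peptides were scarce in this library. AvBD1, AvBD7 and AvBD2, of the avian beta-defensins, were at 0.689, 0.583 and 0.371 CPM, AvBD6 and AvBD10 at 0.106 and 0.0530 CPM, and AvBD9, AvBD11, AvBD12 and AvBD13 had 0 counts. The cathelicidins CATH1, CATH3 and CATH2 were at 0.212, 0.159 and 0.0530 CPM. Outside the list, AvBD5 had 136 counts (7.21 CPM) and was picked after its value was seen.

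Mucins reached the highest ranks under chicken-specific symbols. MUC was at 3207 CPM and MUC5L, a MUC5-like gene counted on LOC107053414, at 1887 CPM, both outside the list as fixed and chosen after their values were seen. Within the list, MUC16 was at 263 CPM, AGR2, which folds mucins, at 246 CPM, MUC13 at 230 CPM, the MUC5AC-like gene MUC5ACL at 229 CPM, CREB3L1 at 182 CPM and GALNT12 at 108 CPM. The goblet cell factor SPDEF was at 31.9 CPM. The intestinal mucin MUC2 was at 4.93 CPM. The list took 0.135% of counts as fixed and 0.644% with MUC and MUC5L.

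Ion and water transport genes took 0.361% of counts, with 22 of 25 at 1 CPM or more, against 70.4% of protein-coding genes. The sodium pump subunit ATP1B1 was at 455 CPM, the water channel AQP3 at 669 CPM, the chloride loader SLC12A2 at 508 CPM, the proton pump ATP12A at 375 CPM and ANO5, a protein of muscle, at 303 CPM. The chloride channels ANO1 and CFTR were at 114 and 21.7 CPM. Of the sodium channel ENaC, SCNN1G and SCNN1B were at 7.10 and 2.65 CPM, and SCNN1A had 0 counts. FOXI1, the factor of ionocytes, was at 18.6 CPM.

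Antibody genes led the immune signal. The B and plasma cell list took 0.706% of counts (0.702% to 0.709%), of which IGLL1 held 53.2%, and without IGLL1 and IGJ the share was 0.0511%. IGJ, the chain that joins secreted antibody, was at 2798 CPM. XBP1, EBF1, IRF4 and BLNK followed at 92.7, 90.2, 86.5 and 46.3 CPM, and PRDM1, the plasma cell switch, was at 37.5 CPM. The B cell factor PAX5 was at 19.2 CPM and the receptor subunit CD79B at 7.58 CPM. Immunoglobulin genes resemble each other, which leaves the count of any one of them uncertain.

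T and NK cell genes were present at low levels. Of 33 members, 30 reached 1 CPM, against 70.4% of protein-coding genes, and the median was 10.4 CPM, for 0.0701% of counts. CD44, which many other cells make, took 40.0% of that share at 281 CPM. CD3E was at 83.0 CPM, CD3D at 31.4 CPM and IL2RB at 31.2 CPM. CD4 was at 15.4 CPM and CD8A at 9.22 CPM. The cytokine IFNG had 0.795 CPM.

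Macrophage and dendritic cell genes took 0.114% of counts, and all 27 reached 1 CPM, against 70.4% of protein-coding genes. The lysosomal proteases LGMN, CTSB and CTSS, at 169, 166 and 163 CPM, were followed by IRF8 at 125 CPM, ZBTB46 at 71.6 CPM and MPEG1 at 55.6 CPM. The complement genes C1QC, C1QA and C1QB were at 28.4, 27.9 and 18.2 CPM, and XCR1, a marker of cross-presenting dendritic cells, at 4.08 CPM. In the heterophil and mast cell list, LYZ, KIT, HDC, GATA2, CSF3R and MMP9 were at 32.6, 32.3, 23.7, 11.02, 6.62 and 4.56 CPM. MPO was at 1.54 CPM, and FCER1G had 0 counts.

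Antigen presentation and interferon-response genes had a clear level without exposure. The invariant chain CD74 was at 1111 CPM, the class I genes BF2 and BF1 at 829 and 199.8 CPM, their partner B2M at 483 CPM, NLRC5 at 103 CPM and the class II regulator CIITA, counted on LOC416633, at 57.1 CPM. BLEC1 had 0 counts. BF1 and BF2 are close copies, and their split of reads is uncertain. Of 34 interferon-stimulated genes, 33 reached 1 CPM, against 70.4% of protein-coding genes, with a median of 56.9 CPM. Among them LY6E, ZNFX1, TRIM25 and USP18 were at 335, 238, 155 and 111 CPM, and PARP14 on its own row at 122 CPM. The antiviral effectors MX1 and RSAD2 were at 103 and 32.8 CPM.

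Receptors and ligands of these pathways were measured in families chosen after the values were seen. All 5 interferon receptor genes reached 10 CPM, against 51.2% of protein-coding genes. IFNGR1 was at 120 CPM, IFNGR2 at 101.03 CPM, IFNAR2 at 75.4 CPM, IFNAR1 at 74.8 CPM and IFNLR1 at 25.2 CPM. Of 5 interferon ligand genes, 4 had 0 counts, against 16.2% of protein-coding genes, and IFNG had 15 counts. Toll-like receptors were at 1 CPM or more in 9 of 10 cases, from TLR3 at 59.2 CPM to TLR5 at 2.54 CPM, and TLR2B had 0.106 CPM. Of the 23 interleukins taken into the family, 7 reached 1 CPM, with IL18 and IL16 at 104 and 92.1 CPM. IL17D, classed as miscRNA, was not among the 23 and was at 29.4 CPM. Over all protein-coding genes, 70.4% reached 1 CPM. CXCL12, a chemokine of stromal cells, was at 122 CPM.

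Vessel genes were nearly all detected, with 24 of 25 endothelial genes at 1 CPM or more, against 70.4% of protein-coding genes. VWF was at 719.7 CPM, PECAM1 at 296 CPM, CDH5 at 128 CPM, MMRN1 at 98.1 CPM, MMRN2 at 81.3 CPM and ERG at 75.7 CPM. The lymphatic genes PROX1 and LYVE1 were at 44.4 and 38.8 CPM. Few counts fell on the haemoglobin genes. HBAA and HBAD were at 11.1 and 4.45 CPM. HBG2, which stands for HBBA in the list, and HBE1 had 3 and 2 counts, and HBE, HBG1 and HBZ had 0 counts. How much blood RNA the tissue held was not tested. Other genes of the erythroid list were TFRC at 256 CPM, ANK1 at 56.6 CPM, SPTB at 49.1 CPM and TAL1 at 4.45 CPM, and these are made by other cells as well. SLC4A1, the anion exchanger of red cells, was at 1.48 CPM. Among thrombocyte genes F13A1 took 74.6% of the counts at 108 CPM, ahead of RGS18, TUBB1, GP5 and TREM-B1 at 15.9, 11.4, 3.13 and 2.33 CPM.

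Nerve and fat contributed small shares. In the Schwann cell and nerve list, PMP22, MBP, ERBB3 and GFRA3 were at 81.9, 55.6, 20.3 and 10.3 CPM, while the neurofilament genes NEFL, NEFH and NEFM were at 0.636, 0.265 and 0.106 CPM. In the adipocyte list FASN was at 963 CPM, PNPLA2 at 534 CPM, LPL at 192 CPM, CIDEA at 78.4 CPM, the fat hormone ADIPOQ at 52.1 CPM and LEPR at 47.5 CPM. FASN and PNPLA2 act in many cells, and the fat cell gene PLIN1 was at 14.3 CPM.

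The tissues that lie near the trachea were low. TG, the thyroid hormone precursor, was at 5.72 CPM, and PTH, GCM2 and SLC26A7 had 0 counts. DUOX2, CALCA, SLC5A5, CASR and DIO1 were at 18.6, 6.04, 4.82, 1.38 and 0.795 CPM, and the epithelium of airways is known to use DUOX2. The thymus genes RAG1, DNTT and FOXN1 were at 0.795, 0.795 and 0.265 CPM, and the list's leading members, CD4, CD8A and LCK at 9.01 CPM, also stand in the T cell list, followed by CD1B and CD1C at 4.61 and 2.49 CPM. In 38 genes of organs expected to be absent, 10 reached 1 CPM and 16 had 0 counts, and the median was 0.0795 CPM. Over all protein-coding genes, 70.4% reached 1 CPM and 16.2% had 0 counts. The highest were the liver-typical FGB at 73.3 CPM, VTN at 56.8 CPM and FGG at 31.5 CPM, the hormone gene GCG at 26.2 CPM, PIWIL1 at 6.09 CPM and APOB at 4.40 CPM, while ALB, the main liver product, was at 1.43 CPM and TTR at 0.0530 CPM.

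The HOX genes are switched on in overlapping zones from head to tail. In this library, of 38 measured HOX genes, 13 reached 1 CPM and 18 had 0 counts. Over all protein-coding genes, 70.4% reached 1 CPM and 16.2% had 0 counts. Paralog groups 1 to 5, active from the hindbrain and neck backwards, summed to 87.4 CPM with 9 of 15 genes at 1 CPM or more. Groups 6 to 8 summed to 9.59 CPM with 3 of 8. Groups 9 to 13, of the trunk's end and limbs, summed to 1.91 CPM with 1 of 15. The reads came mostly from the A cluster, with HOXA3 at 31.8 CPM, HOXA5 at 13.1 CPM and HOXA4 at 10.9 CPM, and from HOXB4 at 14.5 CPM. The family was completed beyond the list after the values were seen.

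**Figure D4:**
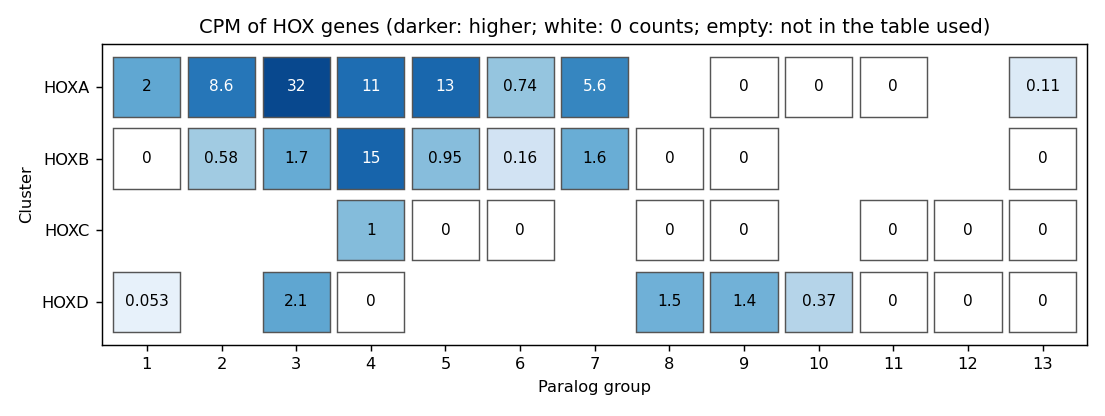
CPM of 38 HOX genes by cluster (rows) and paralog group (columns), with darker blue for higher CPM, white boxes for 0 counts and gaps for genes not in the table used. The filled boxes lie mainly in groups 1 to 7 of the A and B clusters, with HOXA3 darkest at 31.8 CPM.

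Among other regional factors, FOXP1 led at 329 CPM and is widely used. TBX1, a gene of pharyngeal muscle and mesoderm, was at 79.9 CPM, ELF5 at 65.3 CPM and FOXP2 at 63.5 CPM. The airway factors FOXA1, SOX2, NKX2-1 and FOXA2 were at 29.2, 17.1, 10.7 and 7.68 CPM, and the lung mesenchyme factor TBX4 at 17.9 CPM. CDX2, PDX1 and PAX6, of gut, pancreas and eye, had 0 counts. In the neuroendocrine list SCG2 was at 65.3 CPM, PCSK1 at 21.9 CPM, UCHL1 at 20.2 CPM, PCSK2 at 13.5 CPM, the taste-cell channel TRPM5 at 12.98 CPM and SCG3 at 8.53 CPM. NEUROD1 had 0 counts.

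Enzymes that make or clear hydrogen sulfide were read without exposure. Of 13 listed, 11 were measured, and those 11 reached 1 CPM, with a median of 37.7 CPM. The share at 1 CPM or more was 56.3% over all genes and 70.4% over protein-coding ones. The sulfide oxidising enzyme SQOR and TSTD1 were not analysed here. Of the makers, CBS was at 72.7 CPM, CTH at 37.7 CPM and MPST at 27.4 CPM. Some listed enzymes oxidise or transfer sulfur compounds, and not all of them act on hydrogen sulfide itself. Of these, SELENBP1 was at 58.8 CPM, TST at 24.2 CPM, SUOX at 10.1 CPM and ETHE1 at 7.36 CPM. The transaminases GOT1 and GOT2 were at 94.5 and 93.6 CPM and the cysteine dioxygenase CDO1 at 63.4 CPM.

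Of 40 antioxidant and xenobiotic genes, 36 reached 1 CPM, against 70.4% of protein-coding genes. PRDX1 was at 730.5 CPM, AKR1B10 at 522 CPM, TXNRD1 at 293 CPM, ALDH1A1 at 283 CPM, catalase (CAT) at 251 CPM and NFE2L2, which encodes the stress regulator NRF2, at 228 CPM. HMOX1 and NQO1 were lower, at 14.5 and 13.9 CPM. CYP1A4 and CYP1A1, which rise on contact with aromatic pollutants, were at 0.212 and 0.0530 CPM.

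Genes of general cell functions were measured as well. Translation factors took 0.829% of counts, led by EEF1A1 at 2062 CPM, EIF4G2 at 1522 CPM, EIF4A2 at 873 CPM, PABPC1 at 765 CPM, EEF1A2, a form of muscle and nerve, at 595 CPM and TPT1 at 576 CPM. The 75 ribosomal protein genes took 0.987% of counts, led by RPSA at 633 CPM, RPL7A at 450.0 CPM, RPL4 at 408 CPM, RPS6 at 406 CPM and RPS3A at 402 CPM. Housekeeping genes were led by GAPDH at 2268 CPM, HSP90AA1 at 1427 CPM, ACTB at 1226 CPM, HSPA8 at 941 CPM, LDHA at 901 CPM and FTH1 at 863 CPM, and PGK1, a glycolytic enzyme of all cells, was listed at only 4.61 CPM. The proliferation genes MKI67, TOP2A, KIF11, MCM6, CENPF and PCNA were at 176, 117, 107, 71.6, 68.2 and 52.5 CPM.

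Genes of the mitochondrial genome were listed at 0. All 13 protein-coding ones and the 2 ribosomal RNAs of that genome had 0 counts, although every cell uses them, so no absence can be read from these zeros. All 58 nuclear subunits of oxidative phosphorylation reached 1 CPM, against 70.4% of protein-coding genes, with a median of 30.8 CPM. Of 12 listed W-linked genes, which females carry, only 3 were measured, and they had 1 count in all. The sex of the birds was not tested.

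By class, protein-coding genes took nearly all of the reads. The deposited table gives 10 gene types. The class mRNA, with 19087 genes, took 98.5% of counts and had 70.4% of its genes at 1 CPM or more. lncRNA, long transcripts without a protein, had 5763 genes but 1.06% of counts (1.06% to 1.07%), and 19.6% of them reached 1 CPM. The classes ncRNA and miscRNA took 0.147% and 0.144%, miRNA 0.0897%, Precursor_miRNA 0.0209% and tRNA 0.000784%. rRNA had 0 counts over its 3 genes, RN5S and the ribosomal RNAs of the mitochondrial genome. No absence and no upper limit of the rRNA share can be read from these zeros.

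**Figure D5:**
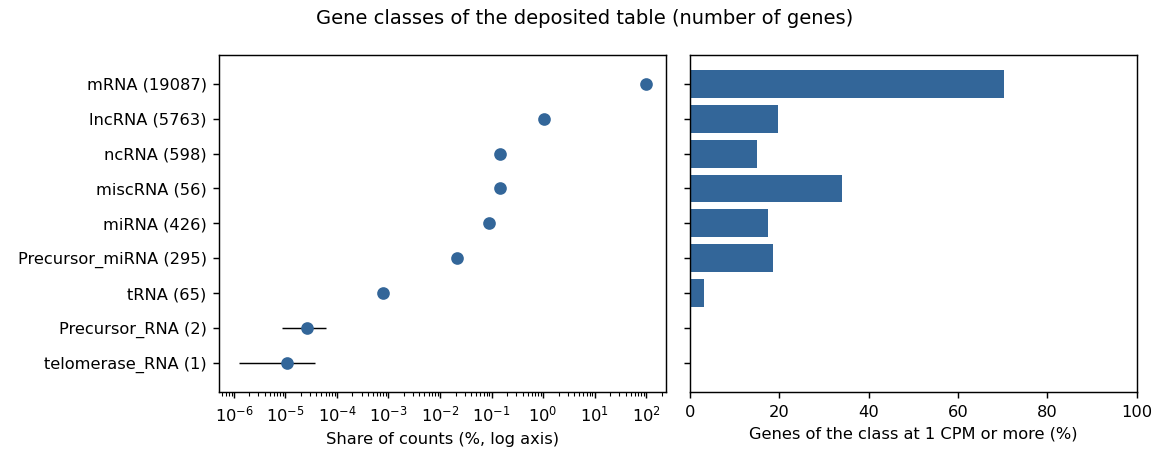
Share of counts of the 9 gene types with any count (left, log axis, lines for exact 95% Clopper-Pearson intervals) and the share of each type's genes at 1 CPM or more (right). The class mRNA holds 98.5% of counts, and the class lncRNA 1.06%.

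Among noncoding classes, the hold of the leading gene varied. OIP5-AS1, a conserved lncRNA also called Cyrano, was at 1295 CPM (rank 51) and held 12.2% of lncRNA counts. LOC423474 and LOC101748672 followed at 372 and 207 CPM. In miscRNA, LOC101750377 alone held 80.7% of counts at 1160.2 CPM, ahead of LOC100858739 and FBXL22 at 57.9 and 36.0 CPM. In ncRNA, PPP4R1L, LOC418249 and FAM160A1 were at 174, 143 and 99.0 CPM. TRNAP-AGG, TRNAG-CCC and TRNAE-CUC led the tRNA genes at 1.64, 1.01 and 0.636 CPM, and TERC, SNORD37 and SNORD69 had 2, 4 and 1 counts.

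Some of these labels differ from a later annotation. Of the 90 ncRNA genes at 1 CPM or more, 21 were found by name in the RefSeq table, and 16 of those are protein-coding there, with 32.2% of the counts of that class. For lncRNA, 500 of 1130 were found and 46 are protein-coding there, with 5.25% of the class's counts. The noncoding share thus holds counts of genes that GRCg7b lists as coding.

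The rows named as miRNA genes were set beside the genes whose span holds them in the RefSeq table. Of 129 miRNA and Precursor_miRNA rows at 1 CPM or more, 125 are in the RefSeq table. Of these, 120 lie inside the span of another gene on either strand, 115 of them in a protein-coding one. Rows under 1 CPM were not looked up, so whether this share is particular to the rows with reads was not tested. MIR3533, the highest of the miRNA class at 303 CPM, lies within ACTB, and MIR7474, at 219 CPM, within the titin gene TTN. MIR3064, at 30.1 CPM, lies within DDX5, at 283 CPM, MIR7476, at 21.8 CPM, within RILPL1, and MIR6690, which led Precursor_miRNA at 17.3 CPM, within CTSB. MIR6681 and MIR6641 followed in that class at 12.3 and 8.79 CPM.

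Their mature sequences, shown because they belong to the leading rows of both miRNA classes, with that of MIR21 for its high small RNA counts, are given as the deposited small RNA table writes them, with the seed (bases 2 to 8) in capitals.
gga-miR-3533: aTGAAGTGtgatgtggatat
gga-miR-7474-5p: gTACGGAGttggtgaaccactgg
gga-miR-3064-3p: tTGCCACActgcaacactttaca
gga-miR-6690-5p: tCAGAAGGggatggctttggctc
gga-miR-21-5p: tAGCTTATcagactgatgttga
No seed is shared among them. In the 3 control small RNA libraries, numbered 1 to 3, gga-miR-3533 had 5, 44 and 19 counts, although MIR3533 had 5724 counts in the mRNA library. gga-miR-7474-5p had 16, 12 and 11 small RNA counts, against 4133 counts of MIR7474 in the mRNA library. The order was the opposite for gga-miR-21-5p, with 1031880, 584782 and 606174 small RNA counts and 143 counts of MIR21 in the mRNA library. MIR3533 and MIR7474 were picked for high counts in the mRNA library and MIR21 for high small RNA counts. Their differing order was set by that choice, so nothing is concluded from it. The part of the spanning genes in these counts was not tested.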

How the data were processed

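The authors deposited raw counts per gene with a gene type for each, and raw counts per mature miRNA. The submitters' processing notes name HISAT2 for mRNA and BWA for small RNA. Their versions, the genome build, the annotation, the counting tool and the use of strand are not stated there, and genes that overlap, on either strand, may share reads. Only the control mRNA column was profiled, with 18875586 counts over 26296 genes, and the control small RNA columns served for the mature miRNAs named.

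Counts were divided by their total (CPM) in Python 3.11.15 with pandas 2.3.3 and scipy 1.17.1. Exact Poisson (gene) and Clopper-Pearson (share) 95% intervals cover counting error only and were checked on simulated data. With 1 library no test was made. Of 11525 LOC identifiers, 521 received a symbol from the RefSeq table of GRCg7b, used for names, gene types and neighbours only.

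The members, the 40 gene lists and the families were chosen with earlier results of these data known. Of the listed genes, 909 were matched and 105 were not used here. After the first look, the spelling of some symbols was corrected and a wrong alias removed. The text names the 30 genes with the most counts, the first 3 of each gene type, the first 6 of each list and, in lists of 20 or fewer, the members at 0 counts. Other genes were picked for their role. Some genes that these rules name are not reported here.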

Additional observations from a re-analysis of the deposited data

How the results depend on the processing

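The number of expressed genes, 14798, was 16013 at 0.5 CPM, 13509 at 2 CPM, 11657 at 5 CPM and 16013 with at least 10 counts. The 30 leading genes are all protein-coding, so ranking among protein-coding genes could not move them. The shares below left their counting intervals, most of which are narrow. The direction of most moves was fixed by arithmetic, so these moves tell little about the processing. Leaving out the 10 leading genes raises the share of any list or class that holds none of them. Leaving out the top gene of a list lowers its share, and the protein-coding total raises the share of a list of protein-coding genes. The class mRNA moved from 98.53% to 98.46% without the 10 leading genes. Without the 10 genes with the most counts, the share of counts was 0.0220% for the class Precursor_miRNA, 1.12% for the class lncRNA, 98.5% for the class mRNA, 0.0942% for the class miRNA, 0.151% for the class miscRNA, 0.155% for the class ncRNA, 1.13% for cartilage matrix and 0.101% for chondrocyte regulators. Under the same setting it was 0.237% for mineralisation and osteoblast, 0.690% for fast skeletal muscle, 0.328% for slow skeletal muscle, 0.992% for giant sarcomere and Z disc, 0.0473% for muscle regulators, 0.133% for smooth muscle, 2.92% for fibroblast and interstitial matrix and 0.448% for basement membrane. It came to 0.282% for general epithelium, 0.419% for multiciliated cells, 0.141% for mucins and goblet secretion, 1.08% for mucosal defence, 0.296% for basal and squamous epithelium, 0.379% for ion and water transport, 0.0881% for airway and regional transcription factors and 0.0167% for neuroendocrine and sensory genes. The share was 0.0736% for T and NK cells, 0.347% for B and plasma cells, 0.1202% for macrophages and dendritic cells, 0.0125% for heterophils and mast cells, 0.0404% for erythroid genes, 0.0151% for thrombocytes, 0.198% for endothelium and 0.0736% for Schwann cells and nerve. Further values were 0.208% for adipocytes, 0.318% for MHC and antigen presentation, 0.289% for interferon-stimulated genes, 0.0530% for hydrogen sulfide enzymes, 0.445% for antioxidant and xenobiotic genes, 0.871% for translation factors, 1.26% for cytoskeleton and housekeeping and 1.04% for ribosomal proteins. Further values were 0.0220% for tissues expected to be absent and 0.110% for proliferation. Without the top gene of each list, it was 1.48% for cartilage matrix, 0.0623% for chondrocyte regulators, 0.0854% for mineralisation and osteoblast, 1.02% for fast skeletal muscle, 0.171% for slow skeletal muscle, 0.618% for giant sarcomere and Z disc, 0.0115% for muscle regulators and 0.0964% for smooth muscle. Under the same setting it was 3.62% for fibroblast and interstitial matrix, 0.351% for basement membrane, 0.212% for general epithelium, 0.353% for multiciliated cells, 0.108% for mucins and goblet secretion, 0.722% for mucosal defence, 0.213% for basal and squamous epithelium and 0.275% for ion and water transport. It came to 0.0509% for airway and regional transcription factors, 0.00934% for neuroendocrine and sensory genes, 0.00193% for the list of thyroid with parathyroid and ultimobranchial genes, 0.00281% for thymus, 0.0420% for T and NK cells, 0.332% for B and plasma cells, 0.0976% for macrophages and dendritic cells and 0.00865% for heterophils and mast cells. The share was 0.0129% for erythroid genes, 0.00366% for thrombocytes, 0.117% for endothelium, 0.0209% for Schwann cells and nerve, 0.101% for adipocytes, 0.192% for MHC and antigen presentation, 0.227% for interferon-stimulated genes and 0.0411% for hydrogen sulfide enzymes. Further values were 0.351% for antioxidant and xenobiotic genes, 0.624% for translation factors, 0.978% for cytoskeleton and housekeeping, 0.925% for ribosomal proteins, 0.0136% for tissues expected to be absent, 0% for W-linked genes and 0.0867% for proliferation. With the total over protein-coding genes only, it was 2.38% for cartilage matrix, 0.0980% for chondrocyte regulators, 0.229% for mineralisation and osteoblast, 1.42% for fast skeletal muscle, 0.316% for slow skeletal muscle, 0.959% for giant sarcomere and Z disc, 0.129% for smooth muscle and 4.37% for fibroblast and interstitial matrix. Under the same setting it was 0.433% for basement membrane, 0.273% for general epithelium, 0.405% for multiciliated cells, 0.137% for mucins and goblet secretion, 1.04% for mucosal defence, 0.286% for basal and squamous epithelium, 0.366% for ion and water transport and 0.716% for B and plasma cells. It came to 0.116% for macrophages and dendritic cells, 0.191% for endothelium, 0.201% for adipocytes, 0.308% for MHC and antigen presentation, 0.279% for interferon-stimulated genes, 0.430% for antioxidant and xenobiotic genes, 0.841% for translation factors and 1.22% for cytoskeleton and housekeeping. The share was 1.002% for ribosomal proteins and 0.106% for proliferation. Settings added after seeing the data gave 0.644% for mucins with MUC and MUC5L, 0.0511% for B and plasma cells without IGLL1 and IGJ, and rank 5 for NEB with both rows summed. Scaling by coding length was not run, as no protein table was used here. No paired analysis was possible because only 1 library was profiled. Genes under the floor of 3 counts, 0.159 CPM, could not be told from absent ones, and the spread between birds is unknown.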
